A study of Mus musculus with 8 samples.

Results

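Transcript levels of 34 genes of sphingolipid synthesis, turnover and signalling were read in mouse macrophages. The genes were taken by symbol from a list whose rule uses no measured value, and enzymes confined to the lysosome were left out of it. Earlier results of these data were known when the list was chosen. All 34 symbols were present among the 24421 gene symbols of every library, and all 34 were among the 13821 genes with enough reads to be tested. Gene positions below are those of GENCODE M21 on mm10, the build that the submitters' processing notes name.

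The study sequenced total RNA from primary macrophages in 8 libraries: 3 wild-type (WT), 3 labelled LysM-DKO and 2 labelled ABCG1KO. The series' design text names an Epsin-DKO and no LysM-DKO, so the 2 names were taken for one group. LysM is the lysozyme gene Lyz2, whose promoter is widely used to drive Cre recombinase in myeloid cells, and Abcg1 encodes a transporter that exports cholesterol from macrophages. All animals were fed a normal diet. Age, the tissue the cells were taken from, the number of animals behind a library and the Cre status of the WT animals are not given in the sources used here. Nothing states that the libraries of a group came from separate animals, so the p-values measure the spread between these libraries, which may be technical.

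Sphingolipids are built on a sphingoid base that serine palmitoyltransferase makes from serine and palmitoyl-CoA. Ceramide synthases attach a fatty acid of a preferred length to give ceramide, which is then turned into sphingomyelin, ceramide 1-phosphate or glycosphingolipids, or broken down to sphingosine. Sphingosine kinases make sphingosine 1-phosphate, a ligand of cell surface receptors that guide the movement of leukocytes, and in macrophages sphingomyelin binds cholesterol in the plasma membrane and so bears on how much cholesterol can leave the cell.

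The deposited read counts came to 29567615 to 41888516 per library in genes, and the 34 genes took 0.349% to 0.409% of them. Values are given as CPM, counts relative to the library total, on the usual scale of that name, after scaling of library sizes with TMM factors. The targeted gene Abcg1 stood at 405, 404 and 345 CPM in WT and at 60.4 and 73.4 CPM in ABCG1KO, and fell by 2.52 on the log2 scale (edgeR adjusted p 0.00414, SE 0.372). Epn1 stood at 229.7, 204 and 191 CPM in WT and at 169, 183 and 154 CPM in the libraries labelled LysM-DKO, an edgeR log2 fold change of -0.30 (adjusted p 0.43). In ABCG1KO, Epn1 was at 182 and 155 CPM, with the same log2 fold change of -0.30 against WT (edgeR adjusted p 0.21), so the lower level was not particular to LysM-DKO. For Epn2 the levels were 8.18, 8.86 and 4.97 CPM in WT and 5.67, 13.2 and 6.298 CPM in the libraries labelled LysM-DKO, with overlapping ranges, and 18.6 and 18.5 CPM in ABCG1KO. Lyz2, the locus that LysM in the label refers to, was at 13000, 15150 and 15710 CPM in WT, 6177, 8105 and 6266 CPM in LysM-DKO and 14410 and 11240 CPM in ABCG1KO. It was lower in all 3 libraries labelled LysM-DKO than in any other library, with a log2 fold change of -1.09 against WT (edgeR adjusted p 0.173, SE 0.202) and -0.90 against ABCG1KO (edgeR adjusted p 0.0336). The difference from WT did not pass the test over all genes, and gene-level reads of the epsins did not separate the libraries labelled LysM-DKO strongly. The female transcript Xist was at 79.05, 193 and 200.3 CPM in WT, 0.0485, 265 and 254 CPM in LysM-DKO and 0 CPM in both ABCG1KO libraries. Reads of 4 Y-linked genes were found in LysM-DKO 1 and in both ABCG1KO libraries. In ABCG1KO against WT a difference by genotype and one by sex thus cannot be told apart. Reads outside annotated genes made up 4.26% to 6.07% of the counted reads in WT and LysM-DKO, and 13.8% and 10.2% in ABCG1KO. Alignments that were not unique made up 2.65% to 3.01% in WT and LysM-DKO, and 6.93% and 6.74% in ABCG1KO. Ambiguous reads made up 0.873% to 0.98% in WT and LysM-DKO, and 0.665% and 0.614% in ABCG1KO. Whether these library measures bear on the results was not tested.

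The macrophage markers were abundant in every library, with Csf1r at 909.5 CPM or more, but their levels differed between groups. By edgeR, 3 of the 8 rose in ABCG1KO against WT, namely Adgre1 (2.31-fold), Csf1r (2.28-fold) and Cd14 (3.66-fold), and Cd68 fell to 48.1% of WT (adjusted p 0.0147, 0.0172, 0.0185 and 0.0192). The part of these differences in the results below was not tested. Markers of resident peritoneal macrophages summed to 12.1 to 53.2 CPM in WT and 3.15 to 40.9 CPM in LysM-DKO, but to 900.2 and 155 CPM in the ABCG1KO libraries, where 2 of the 6 tested rose. Prg4 (499.8 and 60.7 CPM) and F5 (267 and 36.2 CPM) gave most of the ABCG1KO sums. Of the single markers only Gata6, at 28.7 and 32.6 CPM, was not higher in ABCG1KO 1 than in ABCG1KO 2. Mast cell markers summed to 0.181 to 3.15 CPM in WT, 0.121 to 0.536 CPM in LysM-DKO and 47.2 and 7.95 CPM in ABCG1KO. B cell markers summed to 2.51 to 30.3 CPM in WT, at most 1.40 CPM in LysM-DKO and 15.1 and 2.64 CPM in ABCG1KO. Fibroblast and mesothelial markers summed to 704 to 892 CPM in WT, 644 to 1616 CPM in LysM-DKO and 151 and 1164 CPM in ABCG1KO. T cell markers summed to at most 6.65 CPM, neutrophil markers to at most 5.93 CPM and endothelial markers to at most 25.2 CPM. Of the endothelial markers, Kdr was at 12.99, 14.7 and 18.3 CPM in WT, 24.2, 18.7 and 17.4 CPM in LysM-DKO and 0.909 and 0.566 CPM in ABCG1KO, and fell there against WT (log2 -4.38, edgeR adjusted p 0.000116). Pecam1 was at 0.381, 2.73 and 0.699 CPM in WT and 5.42 and 7.74 CPM in ABCG1KO (log2 2.37, edgeR adjusted p 0.0725), and Erg and Tek were at or near 0 throughout. The part of these differences in the results was not tested. In bulk RNA, fewer cells of a kind and less RNA per cell cannot be told apart.

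In WT macrophages 11 of the 34 genes stood above 100 CPM, 20 between 10 and 100 CPM and 3 below 10 CPM. Per kilobase of exon, the scale on which genes can be set against each other, the glycolipid carrier Gltp was highest at 304 CPM per kb. The dihydroceramide desaturase Degs1 followed at 188, the ceramide synthase Cers2 at 155, the sphingosine 1-phosphate lyase Sgpl1 at 139, the serine palmitoyltransferase subunit Sptssa at 101 and the ceramide kinase Cerk at 92.3 CPM per kb. Next in the order after Cerk was the sphingosine kinase Sphk2 at 29.4 CPM per kb, and the order ended with 0.937 CPM per kb for the exporter Spns2 and 0.166 CPM per kb for the ceramidase Acer2. Of the 33 pairs of neighbours in this order, 10 had WT ranges that did not overlap, among them Gltp and Degs1, Sgpl1 and Sptssa, Cerk and Sphk2, and Spns2 and Acer2. Degs1, Cers2 and Sgpl1 overlapped from one to the next, as did all neighbours from S1pr2 down to Smpd2. Between the WT libraries the median coefficient of variation was 13% over the 34 genes and 17.5% over all genes tested. No background matched for level was taken, so the lower median is not read as a trait of these genes. Of the 34 genes, 5 exceeded 40%: Cers6, S1pr1, Sphk1, Spns2 and Acer2.

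**Figure D1:**
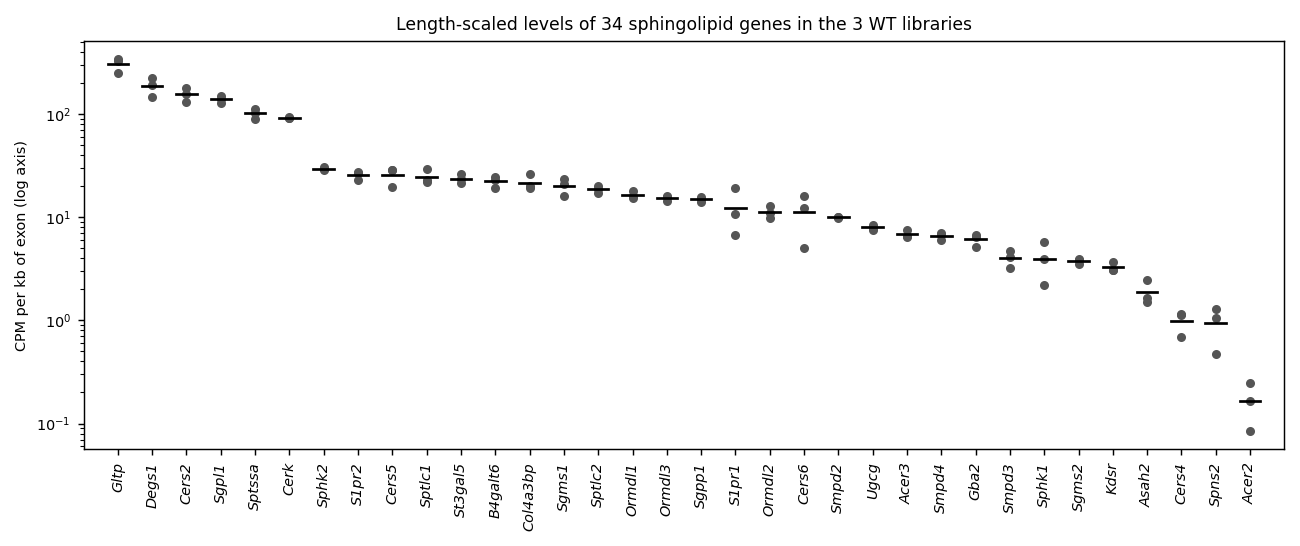
Length-scaled levels of the 34 sphingolipid genes in the 3 WT libraries, as CPM per kilobase of exon on a log axis, with genes ordered by their mean; each point is a library and each bar the WT mean. The first 6 genes, Gltp to Cerk, lie at 92.3 CPM per kb or more, and Acer2 is lowest at 0.166 CPM per kb.

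No sphingolipid gene passed the test between WT and the libraries labelled LysM-DKO. A gene is called here when its Benjamini-Hochberg adjusted p over all genes tested is under 0.05, and none of the 34 was called by edgeR's quasi-likelihood test, where 5 of all genes tested, or 0.0362%, were called. Unadjusted p-values were under 0.05 for 6 of the 34 and for 11.7% of all genes tested, and DESeq2 called 2 of the 34, Cers4 and St3gal5, and 278 of all genes, or 1.56%. The median log2 fold change over the 34 was -0.01, with 17 above and 17 below 0, and that over all genes tested was 0.02. In 29 of the 34 the log2 fold change was smaller than 0.5 in size, as in 73.6% of all genes tested. The values of the 2 groups did not overlap in 7 of the 34 genes: Kdsr, Cers4 and Smpd4 were higher in all 3 libraries labelled LysM-DKO, and Sptssa, St3gal5, Sphk1 and S1pr2 were lower. That share is near the 21% of all genes tested whose values did not overlap.

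More genes separated in ABCG1KO, again about as often as genes at large. Against WT, 6 of the 34 were called by edgeR, beside 16% of all genes tested. Kdsr and B4galt6 rose, 2 of 34 beside 7.21% of all genes, and Cers2, Cers4, Gltp and Smpd3 fell, 4 of 34 beside 8.83%. Values did not overlap in 16 of the 34 genes, 7 higher and 9 lower, beside 48.2% of all genes tested. The median log2 fold change of the 34 was -0.07 against 0.01 over all genes, and the median size of the change was 0.27 against 0.46. Sex, the share of reads outside genes and the macrophage and resident peritoneal macrophage markers moved with the same contrast. The number called depended on single libraries: it was 1, B4galt6, without ABCG1KO 1, 2 without WT 2, 3 without WT 1 and 4 without WT 3 or LysM-DKO 2. With library sizes unscaled, the median of all genes moved from 0.01 to 0.25 and the calls became 6 higher and 2 lower.

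Set directly against each other, LysM-DKO and ABCG1KO differed in 6 of the 34 genes by edgeR, beside 13.4% of all genes tested. Cers2, Cers4 and Smpd3 were higher in LysM-DKO, beside 7.76% of all genes, and B4galt6, St3gal5 and Sgpp1 were lower, beside 5.64%. Xist was at 0.0485, 265 and 254 CPM in LysM-DKO 1, 2 and 3 and at 0 CPM in both ABCG1KO libraries. Reads outside genes made up 4.33% to 6.07% in LysM-DKO, and 13.8% and 10.2% in ABCG1KO. Of the 8 macrophage markers, edgeR called 1 higher and 4 lower in LysM-DKO. Whether these differences bear on the 6 calls was not tested. Cers4 and St3gal5 remained called without any single library, and only these 2 were called without ABCG1KO 1 or without LysM-DKO 1. Without any one of the other libraries 4 or 5 of the 34 were called. With the 2 groups compared fitted alone, the calls of Kdsr, Cers4 and Gltp in ABCG1KO against WT and of B4galt6, Smpd3 and Sgpp1 between the knockouts were lost, and unscaled library sizes ended those of Cers4 and Gltp against WT and of Smpd3 between the knockouts. The 3 comparisons share libraries, so their values for a gene are given side by side below and not as independent evidence.

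**Figure D2:**
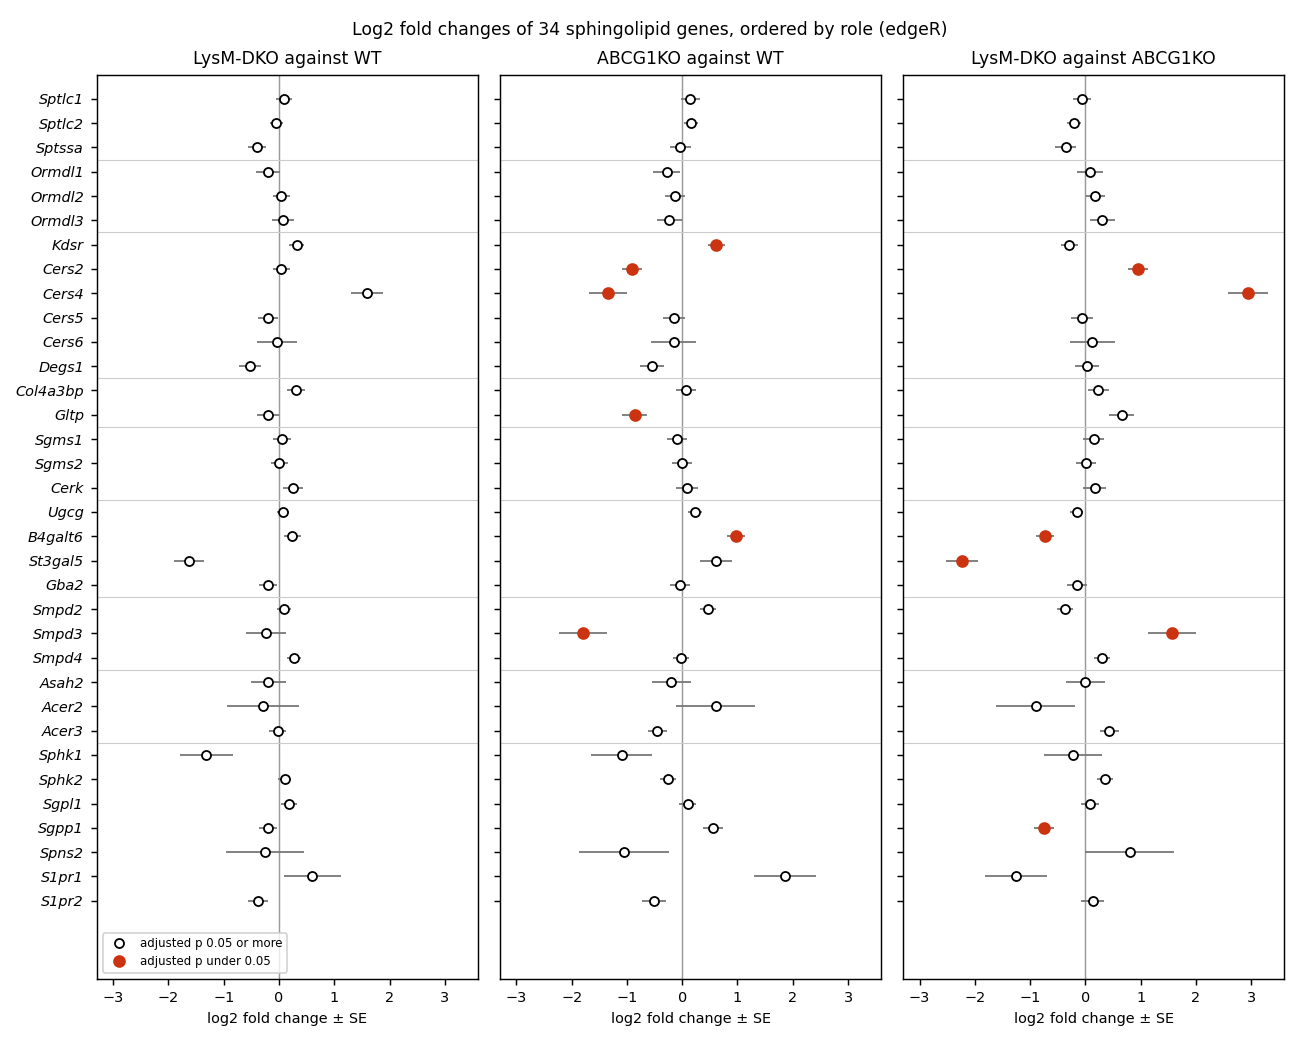
Log2 fold changes with their standard errors for the 34 genes in the 3 comparisons, in order of role from serine palmitoyltransferase at the top to sphingosine 1-phosphate genes at the bottom; filled points passed an adjusted p of 0.05 in the edgeR test. No gene passed in LysM-DKO against WT, 6 passed in each of the other comparisons, and Cers4 and St3gal5 lie farthest from 0 in LysM-DKO against ABCG1KO.

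Cers4 and St3gal5 showed the widest range between the knockouts. Cers4 (chr8:4493026-4531680, plus strand), a ceramide synthase that prefers fatty acids of intermediate length, was at 6.48, 10.7 and 10.8 CPM in WT, 30.6, 29.5 and 24.6 CPM in LysM-DKO and 2.48 and 4.83 CPM in ABCG1KO. All 3 libraries labelled LysM-DKO lay above every WT library and both ABCG1KO libraries lay below them, so the 3 groups did not overlap. Against WT the log2 fold change of Cers4 was 1.60 (SE 0.294) in LysM-DKO with an edgeR adjusted p of 0.173, and DESeq2 gave 9.42e-05 (range over all alternatives 9.42e-05 to 0.52). In ABCG1KO it was -1.35 (edgeR adjusted p 0.033, SE 0.341), and leaving out WT 2, WT 3, LysM-DKO 2 or ABCG1KO 1 ended that call (adjusted p 0.053 to 0.138). Between the knockouts Cers4 was 7.69-fold higher in LysM-DKO (log2 2.94, edgeR adjusted p 0.00203, SE 0.366). LysM-DKO 1 was the only library of its group with the Y-linked reads given above, and both ABCG1KO libraries held them too. Whether sex bears on the Cers4 levels was not tested. Cers4 exons overlap Vmn2r-ps89 on the other strand over 9.35% of their length.

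St3gal5 (chr6:72097592-72154571, plus strand), the synthase of ganglioside GM3, ran the other way. Its levels were 58.2, 63.95 and 52.98 CPM in WT, 11.1, 21.4 and 24.2 CPM in LysM-DKO and 81.8 and 95.95 CPM in ABCG1KO. Every library labelled LysM-DKO lay below every WT library, every ABCG1KO library lay above, and LysM-DKO 1 was the lowest of all. The log2 fold change against WT was -1.63 (edgeR adjusted p 0.158, SE 0.267) in LysM-DKO, where DESeq2 gave 5.32e-06 (range over all alternatives 5.32e-06 to 0.513), and 0.61 (edgeR adjusted p 0.19, SE 0.287) in ABCG1KO. Between the knockouts St3gal5 was 4.70-fold lower in LysM-DKO (log2 -2.23, edgeR adjusted p 0.0026, SE 0.29). The count ratio of St3gal5 to B4galt6, one of the genes whose enzymes make its substrate, was 0.398 to 0.522 in WT, 0.0821 to 0.147 in LysM-DKO and 0.315 and 0.384 in ABCG1KO.

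The promoters of these 2 genes are shown because their transcripts differed most between the knockouts and moved in opposite directions. Each is the RefSeq window of 250 bases before to 50 bases after the transcription start in GRCm38.p6, from the plus strand, with matches to 6 short motifs in capitals. RefSeq and GENCODE starts can differ, and the whole Cers4 window lies within the GENCODE M21 span of Cers4 given above.
Cers4, chr8:4493155-4493454: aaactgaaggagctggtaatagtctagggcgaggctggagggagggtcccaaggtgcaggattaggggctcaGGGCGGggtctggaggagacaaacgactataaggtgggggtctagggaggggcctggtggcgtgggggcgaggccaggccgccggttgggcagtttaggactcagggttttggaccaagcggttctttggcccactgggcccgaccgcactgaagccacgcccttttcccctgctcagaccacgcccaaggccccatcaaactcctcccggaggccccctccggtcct
St3gal5, chr6:72097358-72097657: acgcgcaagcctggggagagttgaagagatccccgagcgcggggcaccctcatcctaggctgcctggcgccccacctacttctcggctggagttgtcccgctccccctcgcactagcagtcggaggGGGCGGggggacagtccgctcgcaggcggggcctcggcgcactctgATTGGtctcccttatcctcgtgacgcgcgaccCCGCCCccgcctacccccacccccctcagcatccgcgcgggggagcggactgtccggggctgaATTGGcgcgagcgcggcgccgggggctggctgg
The motifs, read on both strands, were the E-box CACGTG, the GC box GGGCGG, the CCAAT box CCAAT, the TATA box TATAAA, the PU.1 core GAGGAA and the nuclear receptor half-site AGGTCA. The Cers4 window held 1 GC box and no other match, and the St3gal5 window held 2 GC boxes and 2 CCAAT boxes, which do not overlap each other. GC content was 64.3% in the Cers4 window and 72.7% in the St3gal5 window, against a median of 52.7% over all promoters of the table. Of the 34 genes 30 had a promoter in that table, and 22 of these 30 held a GC box, against 35.9% of 27025 promoters. A CCAAT box was present in 13 of 30 against 37.9%, an E-box in 4 against 7.24%, the PU.1 core in 7 against 28.3%, the half-site in 5 against 16% and the TATA box in 1, that of Sphk1, against 14.2%. The 27025 promoters include those of genes not among the 13821 tested, while all 34 genes were tested. No share over tested genes was taken, so these shares are not read as a trait of the 34. These matches describe letters in a window and were not tested for function.

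**Figure D3:**
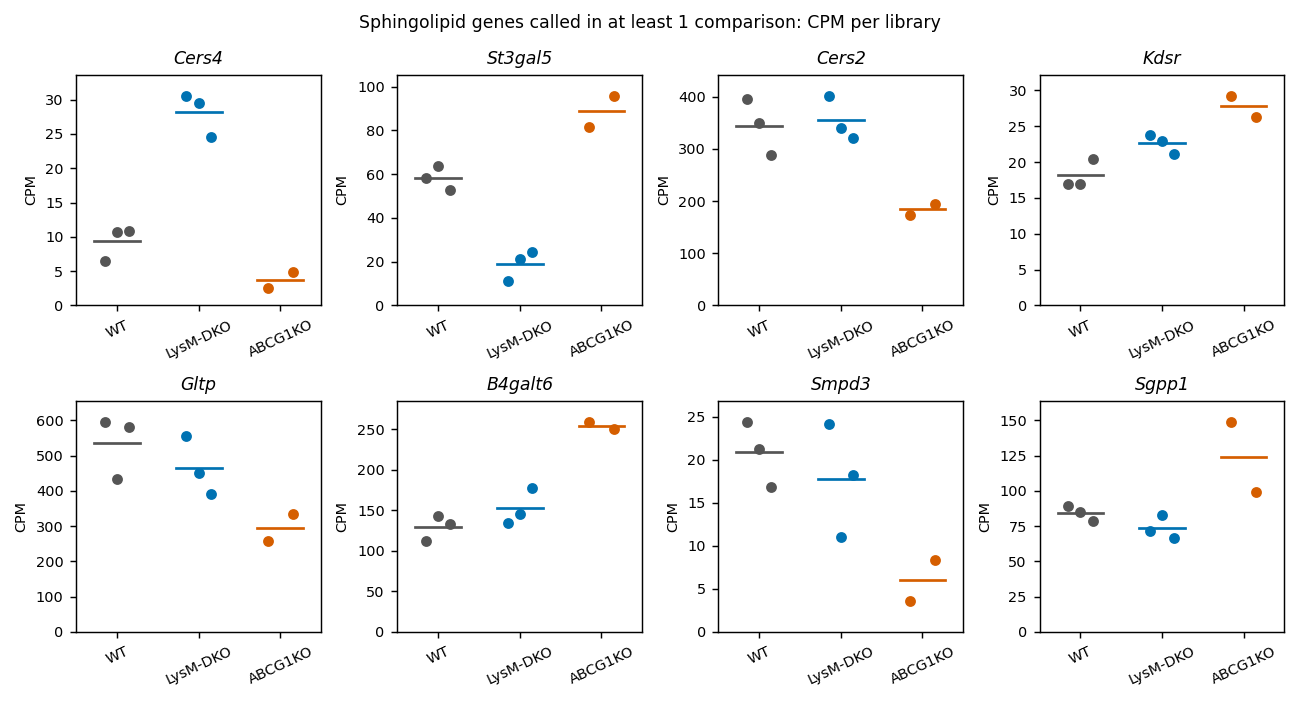
CPM of the 8 sphingolipid genes called in at least 1 comparison, by group; each point is a library, each bar the group mean, and every axis starts at 0. Cers4 is highest and St3gal5 lowest in LysM-DKO, and Cers2, Gltp and Smpd3 are lowest and B4galt6 highest in the 2 ABCG1KO libraries.

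The first step of the pathway did not separate the groups by test. Sptlc1 and Sptlc2, which form the catalytic core of serine palmitoyltransferase, had log2 fold changes of 0.09 and -0.05 in LysM-DKO and of 0.15 and 0.15 in ABCG1KO. For Sptlc2 the 95% interval in LysM-DKO ran from -0.312 to 0.214. The small activating subunit Sptssa was at 151, 119.8 and 138 CPM in WT, 94.04, 102 and 115 CPM in LysM-DKO and 156 and 110 CPM in ABCG1KO. It was lower in every library labelled LysM-DKO than in any WT library, with a log2 fold change of -0.39 (edgeR adjusted p 0.424, SE 0.167), and in ABCG1KO it overlapped WT. The ORMDL proteins hold the enzyme in check when ceramide is plentiful. None of the 3 ORMDL genes was called, and their log2 fold changes ran from -0.20 to 0.07 in LysM-DKO and from -0.28 to -0.13 in ABCG1KO. Ormdl3 was at 35.1, 33.9 and 31.6 CPM in WT and 25.5 and 31.3 CPM in ABCG1KO, which did not overlap (log2 -0.24, edgeR adjusted p 0.511), and with unscaled library sizes its log2 fold change was 0. Ormdl2 shares 57.9% of its 50-base stretches with transcripts of other genes, and its exons overlap Dnajc14 on the opposite strand over 66.7% of their length. Ormdl1 shares 12% of its stretches, and its exons overlap Gm28778 on the same strand over 21.5% of their length. The levels of both genes are therefore uncertain.

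Among the genes that turn the sphingoid base into ceramide, Kdsr rose and Cers2 and Cers4 fell in ABCG1KO. Kdsr (chr1:106720459-106759727, minus strand), the reductase that acts right after serine palmitoyltransferase, was at 16.97, 16.98 and 20.4 CPM in WT, 23.8, 22.96 and 21.2 CPM in LysM-DKO and 29.3 and 26.2 CPM in ABCG1KO. Its values did not overlap between any of the groups. Kdsr was 1.53-fold higher in ABCG1KO than in WT (log2 0.61, edgeR adjusted p 0.0315, SE 0.154) and had a log2 fold change of 0.32 in LysM-DKO (edgeR adjusted p 0.427, SE 0.139). Leaving out WT 1, WT 2, LysM-DKO 2 or either ABCG1KO library ended the ABCG1KO call (adjusted p 0.0527 to 0.15).

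Cers2 (chr3:95314791-95323599, plus strand), which makes ceramides with very long acyl chains, was the most abundant ceramide synthase on the per-kilobase scale. It was at 395, 349 and 288 CPM in WT, 402, 340.1 and 322 CPM in LysM-DKO and 174 and 194 CPM in ABCG1KO. WT and LysM-DKO overlapped, and both ABCG1KO libraries lay below all 6 others. Cers2 fell to 53.4% of WT in ABCG1KO (log2 -0.90, edgeR adjusted p 0.0158, SE 0.185). Without ABCG1KO 1 the adjusted p was 0.0997 and without WT 2 it was 0.0514. In LysM-DKO the log2 fold change was 0.04, with a 95% interval from -0.324 to 0.411. The knockouts differed by 0.95 (edgeR adjusted p 0.0152, SE 0.185), and leaving out LysM-DKO 1 or ABCG1KO 1 ended that call (adjusted p 0.0563 and 0.121). The count ratio of Cers4 to Cers2 was 0.0164 to 0.0377 in WT, 0.0761 to 0.0869 in LysM-DKO and 0.0142 and 0.025 in ABCG1KO, so Cers4 gave the fewer reads of the 2 in every library.

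The other ceramide synthases and the desaturase were not called. Cers5 and Cers6, which prefer palmitoyl-CoA, had log2 fold changes of -0.20 and -0.03 in LysM-DKO and -0.14 and -0.16 in ABCG1KO. Cers6 ranged from 35.6 to 114 CPM within WT alone, and its interval in LysM-DKO was correspondingly wide, from -0.867 to 0.799. Degs1, which introduces the double bond that makes dihydroceramide into ceramide, was at 461, 301 and 390.4 CPM in WT, 267, 220.5 and 315 CPM in LysM-DKO and 246 and 280.1 CPM in ABCG1KO. Both ABCG1KO libraries lay below all WT libraries, and LysM-DKO overlapped WT by its highest library. The log2 fold changes against WT were -0.52 (edgeR adjusted p 0.393, SE 0.198) and -0.55 (edgeR adjusted p 0.137, SE 0.224).

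Of the transfer proteins, Gltp fell in ABCG1KO and Col4a3bp was not called. Gltp (chr5:114669398-114690984, minus strand) binds glucosylceramide and other glycolipids in the cytosol. Its levels were 596, 434 and 579.8 CPM in WT, 555, 449.5 and 391 CPM in LysM-DKO and 257 and 333 CPM in ABCG1KO. LysM-DKO overlapped WT, and both ABCG1KO libraries were below every other library. In ABCG1KO the log2 fold change of Gltp was -0.86 (edgeR adjusted p 0.0367, SE 0.226), which did not pass once WT 1, WT 3, LysM-DKO 2 or either ABCG1KO library was left out (adjusted p 0.0509 to 0.191). LysM-DKO against ABCG1KO gave 0.66 (edgeR adjusted p 0.0899, SE 0.224). Col4a3bp encodes CERT, which carries ceramide from the endoplasmic reticulum to the Golgi for sphingomyelin synthesis. It was at 107, 103 and 140.2 CPM in WT, 167, 132 and 133 CPM in LysM-DKO and 116 and 129 CPM in ABCG1KO, with overlapping ranges and log2 fold changes of 0.31 and 0.07.

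Genes of sphingomyelin and ceramide 1-phosphate synthesis were not called in any comparison. Sgms1, the Golgi sphingomyelin synthase, had log2 fold changes of 0.05 in LysM-DKO and -0.09 in ABCG1KO. For Sgms2, the synthase at the plasma membrane, the 95% interval against WT ran from -0.361 to 0.378 in LysM-DKO and from -0.413 to 0.413 in ABCG1KO. Cerk, which phosphorylates ceramide, was at 419, 424 and 420 CPM in WT, 593, 525 and 383 CPM in LysM-DKO and 401 and 492 CPM in ABCG1KO. The 3 WT libraries lay close together, and the other groups spread to both sides of them. All 3 genes overlapped WT in both knockouts.

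On the glycosphingolipid branch, B4galt6 rose in ABCG1KO. Ugcg, the glucosylceramide synthase that opens the branch, was at 31.4, 33.8 and 30.4 CPM in WT, 34.3, 34.1 and 32.3 CPM in LysM-DKO and 36.6 and 38.3 CPM in ABCG1KO. LysM-DKO overlapped WT, and both ABCG1KO libraries were above all WT libraries, by a log2 fold change of 0.23 (edgeR adjusted p 0.234, SE 0.123). B4galt6, one of the synthases of lactosylceramide, was at 112, 143 and 133 CPM in WT, 135, 146 and 178 CPM in LysM-DKO and 259 and 250 CPM in ABCG1KO. Both ABCG1KO libraries were above all 6 others, and LysM-DKO overlapped WT. B4galt6 was 1.97-fold higher in ABCG1KO than in WT (log2 0.98, edgeR adjusted p 0.00762, SE 0.166), and it was called under every alternative run for that comparison. Against ABCG1KO the LysM-DKO libraries were lower by a log2 fold change of -0.74 (edgeR adjusted p 0.0263), and leaving out LysM-DKO 1, LysM-DKO 2 or either ABCG1KO library ended that call (adjusted p 0.0535 to 0.117). B4galt5, a gene of the same step that is not among the 34, was at 318, 315 and 344 CPM in WT. It was at 312.5, 229 and 260 CPM in LysM-DKO and 243 and 338 CPM in ABCG1KO. Its log2 fold changes against WT were -0.29 and -0.16 (edgeR adjusted p 0.539 and 0.604). Gba2, which cleaves glucosylceramide outside the lysosome, was at 18.3, 23.8 and 22.7 CPM in WT and overlapped WT in both knockouts (log2 -0.20 and -0.04).

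Of the 3 neutral sphingomyelinases, which release ceramide from sphingomyelin, Smpd3 fell in ABCG1KO and the others were not called. Smpd3 (chr8:106252548-106337988, minus strand) was at 24.4, 21.3 and 16.8 CPM in WT, 24.1, 11.02 and 18.2 CPM in LysM-DKO and 3.61 and 8.33 CPM in ABCG1KO. LysM-DKO overlapped WT, and ABCG1KO lay below every other library. Smpd3 fell in ABCG1KO by 1.80 on the log2 scale (edgeR adjusted p 0.0289, SE 0.437), a call lost without WT 1, WT 2 or ABCG1KO 1 (adjusted p 0.0724 to 0.133). Its difference between the knockouts, 1.57 (edgeR adjusted p 0.0486, SE 0.433), was lost when any library but LysM-DKO 2 or ABCG1KO 2 was left out (adjusted p 0.0661 to 0.237). It also missed the threshold with RLE factors, with unscaled library sizes, with at least 10 counts in every library and with the 2 groups fitted alone (adjusted p 0.0506 to 0.117). Smpd2 was at 15.9, 15.96 and 16.02 CPM in WT, 17.8, 17.4 and 15.7 CPM in LysM-DKO and 22.7 and 21.1 CPM in ABCG1KO. It was above all WT libraries in both ABCG1KO libraries (log2 0.46, edgeR adjusted p 0.0651, SE 0.144), and DESeq2 called it with an adjusted p of 0.0361 (range over all alternatives 0.0124 to 0.235). Smpd4 was at 27.9, 31.01 and 32.7 CPM in WT, 35.5, 35.2 and 39.5 CPM in LysM-DKO and 32.3 and 27.6 CPM in ABCG1KO. Its LysM-DKO libraries lay above all WT libraries without passing the test (log2 0.27, edgeR adjusted p 0.456, SE 0.128).

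None of the 3 ceramidases, which split ceramide into sphingosine and a fatty acid, was called. Acer3 was at 75.01, 73.8 and 85.1 CPM in WT, 83.8, 70.4 and 75.6 CPM in LysM-DKO and 66.2 and 47.5 CPM in ABCG1KO. ABCG1KO lay below WT (log2 -0.46, edgeR adjusted p 0.109, SE 0.171), and LysM-DKO overlapped WT. Asah2, the neutral ceramidase, had log2 fold changes of -0.20 and -0.20, and the Golgi ceramidase Acer2 stayed at or below 1.23 CPM in every library.

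Among the genes that make, clear and sense sphingosine 1-phosphate, none was called against WT and Sgpp1 was called between the knockouts. Sphk1, an inducible kinase for sphingosine, was at 8.50, 22.5 and 15.3 CPM in WT, 2.93, 7.68 and 7.95 CPM in LysM-DKO and 5.17 and 9.25 CPM in ABCG1KO. All 3 libraries labelled LysM-DKO lay below all WT libraries, and the closest pair was 7.95 against 8.50 CPM (log2 -1.32, edgeR adjusted p 0.376, SE 0.48). Sphk2, the other kinase, had a WT level of 29.4 CPM per kb of exon against 3.97 for Sphk1, and was at 128, 122 and 118 CPM in WT and 144, 134 and 116 CPM in LysM-DKO. In ABCG1KO it was at 109 and 96.6 CPM, below every WT library (log2 -0.25, edgeR adjusted p 0.251, SE 0.139). Exons of Sphk2 overlap Dbp and Rpl18 on the other strand over 21.9% of their length, and the strand setting of the counting is not given in the sources used here, so its reads cannot all be assigned with certainty.

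Clearance of sphingosine 1-phosphate was represented by Sgpl1 and Sgpp1. Sgpl1, the lyase that ends the pathway, was at 529.7, 579 and 617 CPM in WT and had log2 fold changes of 0.18 in LysM-DKO and 0.10 in ABCG1KO, with overlapping ranges. Sgpp1 (chr12:75714249-75735729, minus strand), the phosphatase that returns sphingosine 1-phosphate to sphingosine, was at 89.4, 84.9 and 78.9 CPM in WT, 71.8, 82.6 and 66.6 CPM in LysM-DKO and 149 and 99.2 CPM in ABCG1KO. ABCG1KO lay above all other libraries and LysM-DKO overlapped WT. The difference from WT in ABCG1KO was 0.56 (edgeR adjusted p 0.0785, SE 0.186). Between the knockouts Sgpp1 was lower in LysM-DKO by a log2 fold change of -0.75 (edgeR adjusted p 0.0348, SE 0.185), a call lost without WT 2, WT 3, any of the 3 LysM-DKO libraries or ABCG1KO 1 (adjusted p 0.052 to 0.208). The exporter Spns2 ranged from 0.708 to 4.997 CPM over all libraries and overlapped between WT and LysM-DKO.

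Of the receptors, S1pr1 had the largest difference from WT in ABCG1KO among the 34 genes, and it did not pass the test. It was at 33.0, 58.3 and 20.2 CPM in WT, 33.3, 92.01 and 44.3 CPM in LysM-DKO and 181 and 88.6 CPM in ABCG1KO. Both ABCG1KO libraries exceeded every WT library, while LysM-DKO 2, at 92.01 CPM, exceeded ABCG1KO 2. The log2 fold change was 1.86 (edgeR adjusted p 0.0617, SE 0.561), DESeq2 called it with an adjusted p of 0.00267, and without LysM-DKO 2 edgeR gave 0.0449 (range over all alternatives 0.00267 to 0.292). S1pr1 was highest in ABCG1KO 1, the library whose resident peritoneal macrophage markers summed to 900.2 CPM, against 155 CPM in ABCG1KO 2. Prg4 and F5 gave most of these sums, and Gata6 was not higher in ABCG1KO 1. The part of these markers in the result was not tested. S1pr2, a receptor with effects on migration opposite to those of S1pr1, was at 148, 172 and 175 CPM in WT, 134, 133 and 113 CPM in LysM-DKO and 88.6 and 143 CPM in ABCG1KO. Its values were below every WT library in all 3 LysM-DKO and both ABCG1KO libraries. The log2 fold changes of S1pr2 were -0.38 (edgeR adjusted p 0.462, SE 0.187) and -0.51 (edgeR adjusted p 0.142, SE 0.211). The count ratio of S1pr1 to S1pr2 was 0.116 to 0.34 in WT, 0.249 to 0.69 in LysM-DKO and 2.04 and 0.619 in ABCG1KO.

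**Figure D4:**
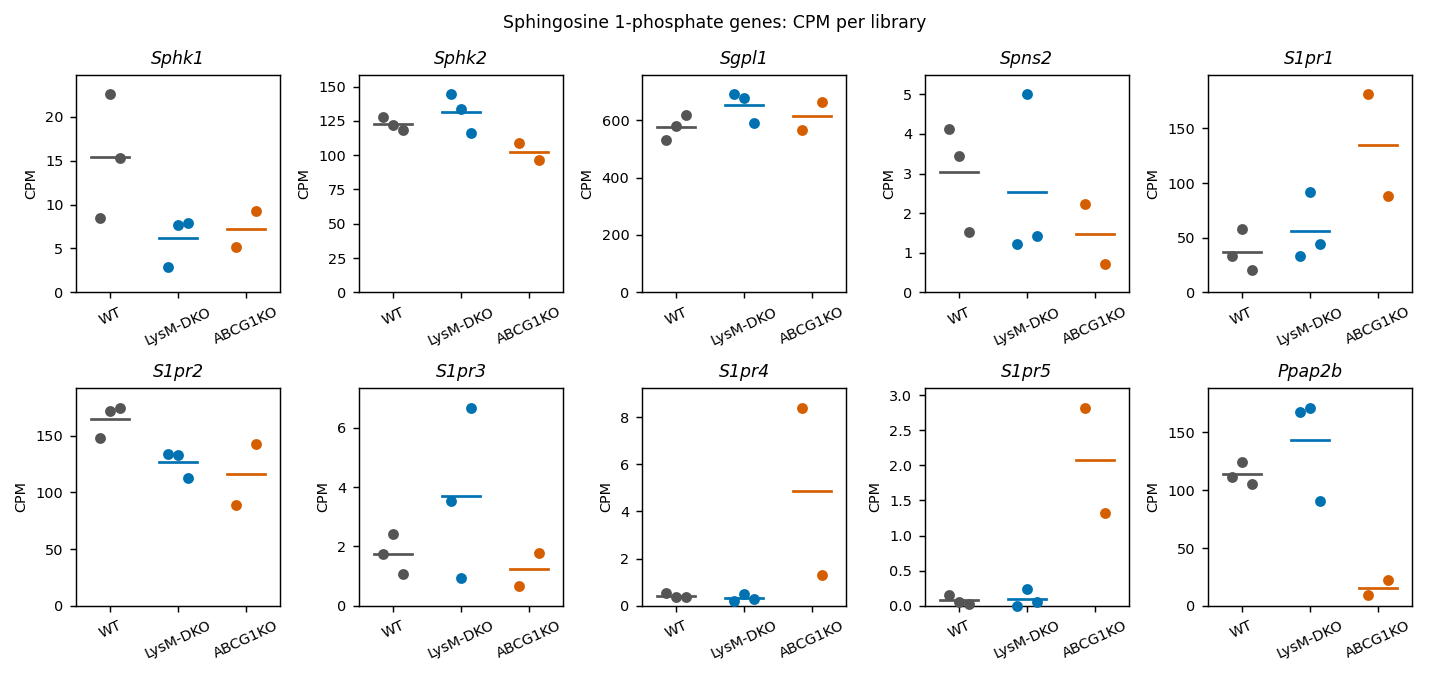
CPM of genes that make, clear, export or sense sphingosine 1-phosphate, by group; each point is a library and each bar the group mean, on axes that start at 0. S1pr1, S1pr4 and S1pr5 are highest in ABCG1KO 1, and Ppap2b is below all other libraries in both ABCG1KO libraries.

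Other genes of sphingolipid metabolism were read from a second list of 47 symbols, of which 43 were in the files and 35 could be tested. None of the 35 was called by edgeR in LysM-DKO against WT, where 4 had an unadjusted p under 0.05 and DESeq2 called 3 (Degs2, Glb1 and Gm2a). By edgeR, 8 were called in ABCG1KO against WT (2 higher, 6 lower, 22.9% beside 16% of all genes) and 9 in LysM-DKO against ABCG1KO (5 higher, 4 lower, 25.7% beside 13.4%). Both counts include S1pr5, which passed the filter on low counts only through ABCG1KO. The shares are therefore not read as a difference from all genes. Ppap2b encodes a lipid phosphatase that dephosphorylates extracellular sphingosine 1-phosphate and related lipids. It was at 111, 125 and 105 CPM in WT, 168, 172 and 90.6 CPM in LysM-DKO and 9.47 and 21.98 CPM in ABCG1KO, and fell in ABCG1KO by 2.85 on the log2 scale (edgeR adjusted p 0.00428). Ppap2b was called under every alternative in which it was tested, and without ABCG1KO 1 it was the only gene of this list called in either comparison. In ABCG1KO against WT 2 of the list were called without WT 1 or WT 2 and 5 without WT 3, LysM-DKO 2 or ABCG1KO 2, and in LysM-DKO against ABCG1KO 1 was called without LysM-DKO 1, 4 without WT 2, LysM-DKO 2 or LysM-DKO 3 and 5 without ABCG1KO 2.

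Further genes of this list were thus called with all libraries but not without some of them. The receptor S1pr4 rose in ABCG1KO, from at most 0.557 CPM in WT to 8.404 and 1.297 CPM (log2 3.47, edgeR adjusted p 0.0226), and without ABCG1KO 1 its log2 fold change was 1.56 (adjusted p 0.269). S1pr5, a further receptor counted among the called genes, had 5, 2 and 1 counts in WT, 0, 10 and 2 in LysM-DKO and 90 and 56 in ABCG1KO. It passed the filter on low counts only through ABCG1KO, the group where it is high, so its call is given no weight. Tecr, a reductase of very long chain fatty acid synthesis, fell by 0.88 (edgeR adjusted p 0.0145). The lysosomal hydrolases Gla, the alpha-galactosidase that degrades globo-series glycolipids, and Smpd1, the acid sphingomyelinase, fell by 0.96 and 0.78 on the log2 scale (edgeR adjusted p 0.0192 and 0.0295). In LysM-DKO against ABCG1KO, Ppap2b, Tecr, Gla and Smpd1 were higher (log2 3.18, 0.78, 0.91 and 0.78; edgeR adjusted p 0.00319, 0.026, 0.0265 and 0.0344). S1pr4 and Degs2, a second dihydroceramide desaturase with hydroxylase activity, were lower in LysM-DKO (log2 -3.88 and -0.88; edgeR adjusted p 0.0194 and 0.0211). For S1pr4 the log2 value was -1.99 without ABCG1KO 1 (edgeR adjusted p 0.207). S1pr4 and S1pr5 were highest in ABCG1KO 1, the library with the highest resident peritoneal macrophage and mast cell marker sums, and the part of these markers in the calls was not tested.

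**Figure D5:**
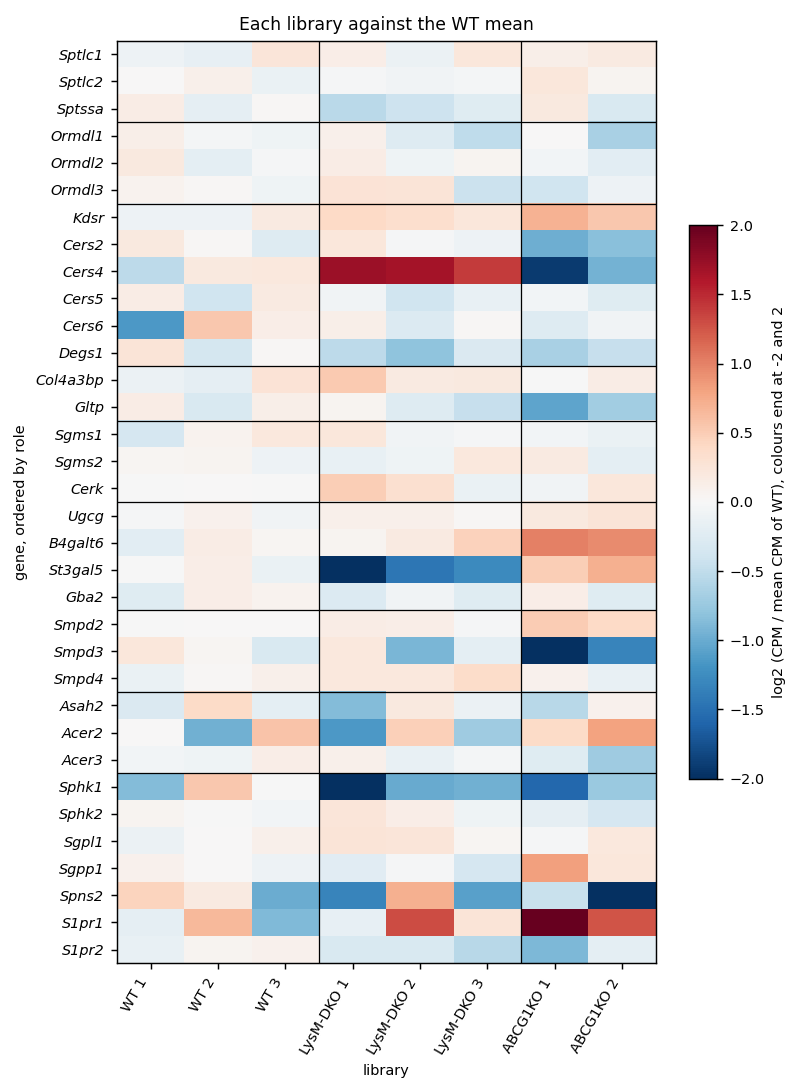
Each of the 34 genes in each of the 8 libraries, as the log2 ratio of its CPM to the WT mean, in order of role; red is above and blue below the WT mean, and colours end at -2 and 2. Cers4 is red in the 3 LysM-DKO libraries and blue in the 2 ABCG1KO libraries, St3gal5 shows the reverse, and most other rows are pale.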

How the data were processed

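RNA from 8 macrophage libraries was counted per gene symbol. The deposited values are raw counts that the authors made with htseq-count, as the counter lines in the files show. Per the submitters' processing notes, the build is mm10 and the tools named are STAR 2.7.9a, TopHat, HTSeq 0.11.2, DESeq2 1.30.1 and limma, with no role or order. The strand setting is not given in the sources used here. Counter lines that name no gene stayed out of library sizes and tests, and reads outside genes made up 4.26% to 13.8% of counted reads.

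Counts were fitted with edgeR 4.0.16 in R 4.3.3: filterByExpr, TMM factors, 1 quasi-likelihood model of group over all 8 libraries, and Benjamini-Hochberg adjustment over the 13821 genes tested. Residual degrees of freedom were 5, and prior ones had a median of 3.33. CPM values use TMM-scaled library sizes. Log2 fold changes carry standard errors, and the intervals are 95% intervals. A count of 0 allows up to 3 counts, or 0.0708 to 0.0941 CPM, for counting error only, since PCR copies could not be told from molecules. Replicates differed by more than sampling noise. The fit was tested on simulated data. DESeq2 1.42.0 served as an alternative, beside other scalings, filters, subsets, a replicate block and leaving out each library.

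The genes and lists were chosen with earlier results of these data known. Values in every library are given for each of the 34 genes that was called or whose groups did not overlap in a comparison with WT. The others are given by range or fold change. Of the second list, at most 6 called genes per comparison are named, by adjusted p, and B4galt5 is given beside B4galt6. Shared sequence was counted as 50-base stretches of GENCODE M21 transcripts that also occur in another gene. Promoter sequences are from RefSeq (GRCm38.p6), at the first listed start of each gene.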

Additional observations from a re-analysis of the deposited data

How the results depend on the processing

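No gene called among the 34 changed direction under any alternative run. In ABCG1KO against WT the number of the 34 called was 8 with unscaled library sizes, 8 with DESeq2 and 7 with at least 10 counts in every library, 3 with only both groups' libraries in the fit, and 3 when genes with 1% or more shared sequence were left out, so that 21 of the 34 were tested; this last alternative was chosen after seeing the data. It was 1 to 7 when single libraries were left out. In LysM-DKO against ABCG1KO it was 3 with only both groups' libraries, 3 without shared-sequence genes and 2 to 5 when single libraries were left out. In LysM-DKO against WT, DESeq2 called 2, and leaving out single libraries gave 0 in each case. Of the 35 other pathway genes, DESeq2 called 3 in LysM-DKO against WT. In ABCG1KO against WT 5 were called with unscaled library sizes, 4 without shared-sequence genes and 1 to 6 without single libraries, and in LysM-DKO against ABCG1KO 4 with only both groups' libraries, 2 without shared-sequence genes and 1 to 7 without single libraries. The cause of these differences was not tested.

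All genes called in LysM-DKO against WT numbered 3 with at least 10 counts in every library, 278 with DESeq2, 8 with the groups alone, 1 with under 1% shared sequence and 0 to 8 without single libraries. In ABCG1KO against WT they numbered 856 with under 1% shared sequence, where fewer genes were tested, and 853 to 2090 without single libraries. In LysM-DKO against ABCG1KO they numbered 2947 with DESeq2, 948 with the groups alone, 643 with under 1% shared sequence and 561 to 1960 without single libraries. The median log2 fold change of the 34 genes with unscaled library sizes was 0.143 in LysM-DKO against WT, where the median of all genes was 0.174, 0.165 in ABCG1KO against WT, where it was 0.248, and -0.032 in LysM-DKO against ABCG1KO, where it was -0.058. It was 0.049 in ABCG1KO against WT with under 1% shared sequence. Without single libraries it ran from -0.045 to 0.03, from -0.145 to -0.016 and from 0.016 to 0.124 in the 3 comparisons. With unscaled library sizes the log2 fold change of Ormdl3 in ABCG1KO against WT was 0, and 10 of the 34 genes changed sign there.

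The labels do not say whether libraries with the same replicate number belong together. Same-numbered WT and LysM-DKO libraries had correlated deviations of 0.041, 0.426 and -0.014, and differently numbered ones -0.292 to 0.225. Deviations from the mean of 2 or 3 libraries are tied to each other, so these values cannot show whether the numbers mark a pairing. With the replicate number as a block, 0, 2 and 4 of the 34 genes, 0, 3 and 2 of the other pathway genes and 0, 1456 and 1024 of all genes were called in LysM-DKO against WT, ABCG1KO against WT and LysM-DKO against ABCG1KO. At this depth 3 of the 34 genes stood under 10 CPM in WT, and 2 libraries in ABCG1KO and 3 in each other group limit the precision.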
